A study of Mus musculus with 6 samples.

Results

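The 8 genes described here are injury, stress and fetal genes of the heart muscle cell: Sprr1a, Nppa, Nppb, Ankrd1, Acta1, Myh7, Gdf15 and Rcan1. They were picked by name, out of 36047 genes in the joined table and 20094 genes that could be tested, and they were picked with their difference between the treatment groups already known from these same libraries. That difference is therefore described here, without a test, for the 8 genes. All 8 passed the filter on low counts, which asked for at least 10 counts in at least 3 of the 6 libraries. Total RNA came from the infarct area of the heart of C57BL6 mice, 12 weeks old and described as female in the study's methods, 48 h after ischemia/reperfusion, in which a coronary artery is tied off and then reopened. The 3 mice of one group were given LGK974 by mouth. LGK974 is a small molecule that inhibits Porcupine, the enzyme that puts a lipid on Wnt proteins and without which they are not secreted. The 3 mice of the other group were given DMSO, the solvent, in the same buffer. All 6 mice were injured, so neither group shows the level in an uninjured heart, and the drug acts on the whole animal, so that the cell type in which Wnt secretion is blocked is not set by the design.

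A cardiomyocyte that is stretched, starved of oxygen or close to dying tissue falls back on part of the program of the embryonic heart. It makes the natriuretic peptides, the skeletal form of alpha-actin and, in rodents, the slow beta form of myosin heavy chain in addition to the fast alpha form, Myh6, that the adult mouse ventricle mainly uses. Other genes of this response are nuclear or Z-disc proteins that respond to mechanical load, feedback inhibitors of calcineurin, and secreted factors of general cell stress. In infarcted hearts several of these genes are known to be highest in the surviving muscle next to the damaged area.

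Sprr1a showed by far the largest difference of the 8 genes. Its level was 398, 226.5 and 486 CPM (counts scaled to library size, here with TMM, edgeR's correction for library composition) in LGK974 replicates 1, 2 and 3 and 50.9, 74.9 and 83.1 CPM in DMSO replicates 1, 2 and 3. Nppa, Acta1, Rcan1, Ankrd1 and Gdf15 were also higher in every LGK974 library than in every DMSO library, while the ranges of the groups overlapped for Nppb and Myh7. So 6 of the 8 genes were higher without overlap and 0 were lower without overlap. Among all 20094 genes, 10.7% were higher and 7.27% lower without overlap, but nothing can be read from that contrast of shares, because the 8 genes were chosen on it. In bulk tissue, fewer cells of a type and less RNA per cell cannot be told apart, and a cell type that takes a larger share of the tissue raises its own genes in the same way.

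**Figure D1:**
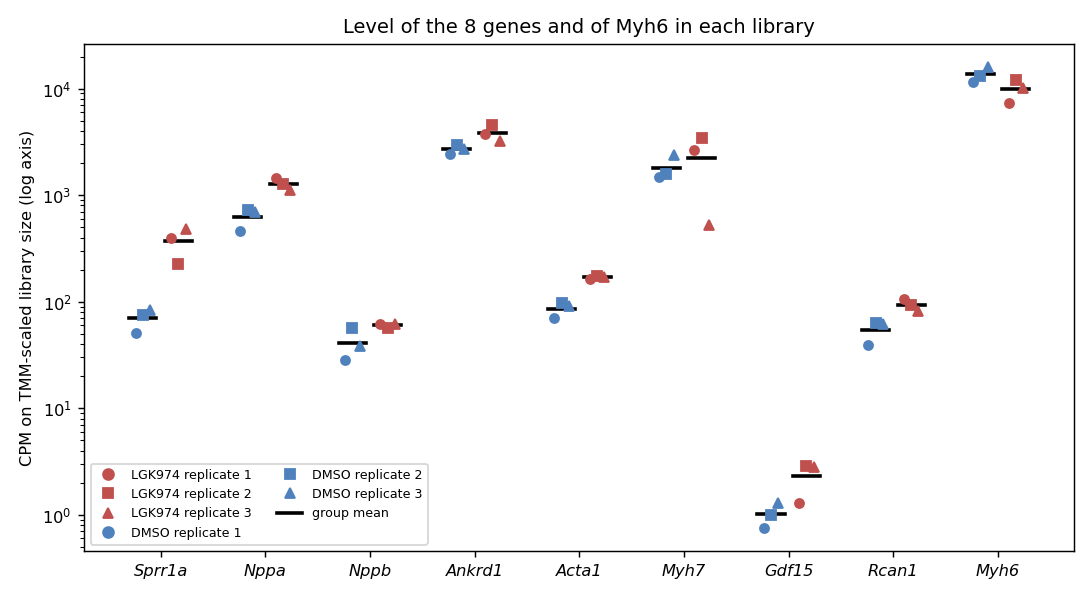
CPM of the 8 genes and of Myh6 in each of the 6 libraries, on a log axis, with circles, squares and triangles for replicates 1, 2 and 3, red for LGK974, blue for DMSO and a black bar for each group mean. The red points lie wholly above the blue ones for Sprr1a, Nppa, Ankrd1, Acta1, Gdf15 and Rcan1, Myh7 has a single low red point at 519.9 CPM, and DMSO replicate 1 is the lowest library for 7 of the 8 genes.

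The sequences below show the stretch just before the start of 3 of the genes. Sprr1a is shown because its difference was the largest and Acta1 because it varied least between the libraries of a group. Rcan1 is shown at both starts for which RefSeq gives a window. The groups did not overlap in its transcripts from the internal start and overlapped in those from the upstream starts. They are taken from RefSeq's annotation of GRCm38.p6, cover up to 250 bases before the annotated start and are written 5′ to 3′ on the strand of the gene, and 14 bases at the end of the Sprr1a window that an annotated exon covers were left out. Capitals mark matches to 9 short motifs that were searched on both strands, so that a match on the other strand reads as the reverse complement. The MCAT element of muscle genes was searched as CATTCC, the GATA element as AGATAA with T allowed as the first letter and G as the last, and the TATA box as TATAAA. The AP-1 element was searched as TGANTCA, the cyclic AMP element CRE as TGACGTCA, the amino acid response element CARE as TGATGNAA, the STAT element as TTCNNNGAA and the core of the NFAT element as GGAAAA. The CArG box, the site of serum response factor, was the longest of the motifs. No matches overlapped each other in the windows shown.
Sprr1a, chr3:92485896-92486131, minus strand: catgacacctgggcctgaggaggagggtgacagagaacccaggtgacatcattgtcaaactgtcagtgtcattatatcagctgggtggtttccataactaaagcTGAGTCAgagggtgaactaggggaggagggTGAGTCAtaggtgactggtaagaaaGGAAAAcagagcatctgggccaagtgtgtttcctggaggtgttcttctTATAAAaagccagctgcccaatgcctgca
Acta1, chr8:123894776-123895025, minus strand: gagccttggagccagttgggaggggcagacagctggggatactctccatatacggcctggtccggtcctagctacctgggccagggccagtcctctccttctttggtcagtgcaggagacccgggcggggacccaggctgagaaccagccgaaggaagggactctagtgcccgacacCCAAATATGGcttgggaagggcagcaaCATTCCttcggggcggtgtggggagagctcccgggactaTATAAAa
Rcan1, internal start, chr16:92400079-92400328, minus strand: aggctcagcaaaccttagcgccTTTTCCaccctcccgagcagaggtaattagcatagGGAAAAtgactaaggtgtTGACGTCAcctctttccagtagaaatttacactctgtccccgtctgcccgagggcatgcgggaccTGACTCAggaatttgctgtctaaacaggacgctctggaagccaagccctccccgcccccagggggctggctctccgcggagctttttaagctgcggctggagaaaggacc
Rcan1, upstream start, chr16:92466170-92466419, minus strand: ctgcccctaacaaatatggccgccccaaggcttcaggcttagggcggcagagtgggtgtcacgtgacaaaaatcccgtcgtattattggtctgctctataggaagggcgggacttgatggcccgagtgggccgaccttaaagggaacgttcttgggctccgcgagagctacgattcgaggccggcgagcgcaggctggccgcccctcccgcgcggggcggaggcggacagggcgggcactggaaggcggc

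Positions were counted from RefSeq's start, at chr3:92485881 for Sprr1a and chr8:123894775 for Acta1. These starts differ from those in the gene coordinates given below, and the count for Sprr1a includes the 14 bases left out. The Sprr1a window held the AP-1 letters at 2 places, which begin 146 and 116 bases before the start, and 6.7% of the 32851 mouse promoter windows searched held them at least once. It also held an NFAT and a TATA match, which occurred in 20.4% and 12.4% of all windows. The Acta1 window held a CArG box that begins 73 bases before the start (1.5% of all windows) and an MCAT match (12.6%), besides TATA. The window before the internal start of Rcan1 held an AP-1 match, a CRE match (1.5% of all windows) and NFAT letters at 2 places. The window before the upstream start that RefSeq gives held 0 matches to the 9 motifs. The annotation used for the counts places some upstream transcripts at other starts, whose windows were not searched. Of all 11 windows that RefSeq gives for the 8 genes, 5 held MCAT (before Nppb, Ankrd1, Acta1, Myh7 and Gdf15), 4 held GATA (Nppa, Nppb, Ankrd1 and Gdf15; 26.5% of all windows), and 0 held the CARE letters of the integrated stress response (3.5%) or the STAT letters (7.0%). A match is a stretch of letters and not a shown binding site, and a missing match says only that the letters are not in that window.

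Sprr1a (chr3:92483952-92485895, minus strand, GRCm38, protein-coding) encodes a small proline-rich protein. It is best known as a cross-linked envelope protein of skin, and in heart as a gene that cardiomyocytes induce under stress and in response to cytokines that signal through gp130. Its mean was 370.1 ± 132 CPM with LGK974 and 69.6 ± 16.8 CPM with DMSO (SD, n = 3 mice in each group). The log2 fold change was 2.41 (standard error 0.334), or 5.31-fold, the 4th largest of the 20094 log2 fold changes. The lowest LGK974 library, replicate 2, was still above the highest DMSO library, and within LGK974 the libraries differed by 2.15-fold. None of the 31-base words of its transcript occur in another gene, so its counts were not divided with a paralog. Genes that mark squamous epithelium were near the detection limit in the same libraries. Their 12 measured members summed to 1.53 to 4.03 TPM with LGK974 and 2.22 to 4.92 TPM with DMSO, and the closest relative, Sprr1b, had a mean of 0.169 TPM, against 413 TPM for Sprr1a.

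Of the natriuretic peptides, Nppa separated the groups and Nppb did not. Nppa (chr4:148000722-148002079, plus strand) encodes atrial natriuretic peptide, a hormone that lowers blood volume and pressure. Its level was 1454, 1263 and 1126 CPM in the LGK974 libraries and 459, 723 and 691 CPM in the DMSO libraries, with means of 1281 ± 165 and 624.5 ± 144 (SD, n = 3). The groups did not overlap, and the log2 fold change was 1.04 (standard error 0.264). Nppb (chr4:147985788-147987205, plus strand), its neighbour on the same chromosome, encodes brain natriuretic peptide, which the ventricle releases under wall stress. It was at 61.5, 56.4 and 62.1 CPM with LGK974 and at 28.2, 56.6 and 38.4 CPM with DMSO. The LGK974 libraries lay close together, within 1.10-fold, but DMSO replicate 2 stood just above the lowest of them, so the groups overlapped. The log2 fold change of Nppb was 0.55 (standard error 0.250), and it was 0.36 without DMSO replicate 1 and 0.84 without DMSO replicate 2. Nppa shares 532 exon bases with an antisense gene that the authors' transcript set does not quantify.

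Nppa is a gene of the atrium in the adult heart, so markers of atrial muscle were examined in the same libraries. The 8 atrial markers summed to 4.18 to 7.36 TPM with LGK974 and 5.32 to 6.92 TPM with DMSO, 4 of the 8 passed the count filter, and the defining ones were near 0, with means of 0.197 TPM for Myl7, 0.0785 TPM for Sln and 0.0589 TPM for Bmp10. Of the 4 tested, Dkk3 was higher with LGK974 and Kcna5 lower without overlap of the groups. The summed ranges of the groups overlapped. The part of atrial tissue in the difference of Nppa was not tested.

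Acta1 (chr8:123891769-123894751, minus strand) encodes skeletal muscle alpha-actin, which is made in adult skeletal muscle and, beside other actins, in the fetal heart. Its 3 LGK974 libraries were nearly level at 163, 173 and 172 CPM, and the DMSO libraries were at 70.3, 97.8 and 90.8 CPM. The means were 169 ± 5.66 and 86.3 ± 14.3 CPM (SD, n = 3), and the log2 fold change was 0.97 (standard error 0.181). The pooled SD of log2 CPM within groups, 0.180, was the smallest of the 8 genes. Of its 31-base words, 4.11% occur in other genes, chiefly beta-actin. The transcript that carries nearly all of its signal, Acta1-201, held 94.1 to 99.5% of Acta1's TPM with LGK974 and 84.96 to 92.4% with DMSO. The cardiac actin Actc1, the main actin of the adult heart, was also higher, at 2412 ± 271 CPM with LGK974 and 1333 ± 440 CPM with DMSO (log2 fold change 0.86, standard error 0.309), without overlap.

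Myh7 (chr14:54970684-54994626, minus strand) encodes beta-myosin heavy chain, the slow motor of the fetal ventricle. It was at 2674, 3444 and 519.9 CPM with LGK974 and at 1474, 1574 and 2369 CPM with DMSO. LGK974 replicate 3 was thus the lowest of all 6 libraries and the other LGK974 libraries were the highest, a range of 6.62-fold within the group. The log2 fold change was 0.29 with a standard error of 0.610, smaller than the spread between mice. Without LGK974 replicate 3 it was 0.82, without LGK974 replicate 2 it was −0.11, and limma-voom gave −0.07. Myh7 and Myh6 lie side by side on chromosome 14, and 22.6% of the 31-base words of Myh7 occur in Myh6, so part of the counts of both genes rests on how the reads were divided between them. In LGK974 replicate 3 the sarcomere genes Tnnt2 (3063 CPM) and Myl2 (572 CPM) also had their lowest value of the 6 libraries, while Actc1 had its highest (2680.0 CPM).

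Ankrd1 (chr19:36111961-36120099, minus strand) encodes a cardiac ankyrin repeat protein that binds titin at the I-band and moves to the nucleus under load. It was among the most abundant transcripts of the tissue, at 3709, 4521 and 3189 CPM with LGK974 and 2408, 2934 and 2735 CPM with DMSO. The groups did not overlap, but the gap between the lowest LGK974 and the highest DMSO library was small. The log2 fold change was 0.50 (standard error 0.281), below those of the other 5 genes whose groups did not overlap. Most of its TPM was assigned to the transcripts Ankrd1-203 and Ankrd1-204, which are annotated as targets of nonsense-mediated decay. Ankrd1-204 alone held 49.4 to 52.9% with LGK974 and 45.04 to 64.5% with DMSO.

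Gdf15 (chr8:70629393-70632456, minus strand) encodes a secreted member of the TGF-beta superfamily that many tissues release under stress. It was the rarest of the 8 by far, with 109, 155 and 178 counts in the LGK974 libraries and 30, 48 and 52 counts in the DMSO libraries, while the other 7 genes had 1121 to 314898 counts per library. On the CPM scale these were 1.28, 2.89 and 2.79 with LGK974 and 0.754, 0.993 and 1.28 with DMSO. LGK974 replicate 1 was barely above DMSO replicate 3. Its log2 fold change was 1.20 (standard error 0.487), from the fewest counts of the 8 genes.

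Rcan1 (chr16:92391953-92470867, minus strand) encodes a regulator that binds calcineurin and inhibits it. The form from its internal start is known as a transcript that calcineurin and NFAT themselves induce, which makes it a common readout of that pathway in heart. Rcan1 as a whole was at 107, 93.5 and 81.02 CPM with LGK974 and at 39.6, 62.7 and 61.5 CPM with DMSO, without overlap. The log2 fold change was 0.78 (standard error 0.221). Split by start, the 3 transcripts from within the gene made up 88.0, 89.97 and 84.5% of Rcan1's TPM with LGK974 and 77.1, 76.1 and 74.4% with DMSO, or 87.5 ± 2.76% and 75.9 ± 1.37% (SD, n = 3). Every LGK974 library was above every DMSO library in this share. TPM values are shares of each library and were not scaled with TMM. On that scale the internal start gave 48.1 ± 15.0 TPM with LGK974 and 20.2 ± 8.06 TPM with DMSO. The upstream starts gave 7.27 ± 3.94 and 6.53 ± 2.82 TPM, whose ranges overlap. LGK974 replicate 3, which had the lowest mitochondrial share (28.1%), had the highest TPM from the internal and from the upstream starts. The same split of the estimated counts gave 85.8 ± 3.21% and 71.6 ± 2.52%. This grouping of transcripts was made after their values were seen, it compares the groups that chose Rcan1, and the transcript Rcan1-204 within it was listed at 0 in every library.

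**Figure D2:**
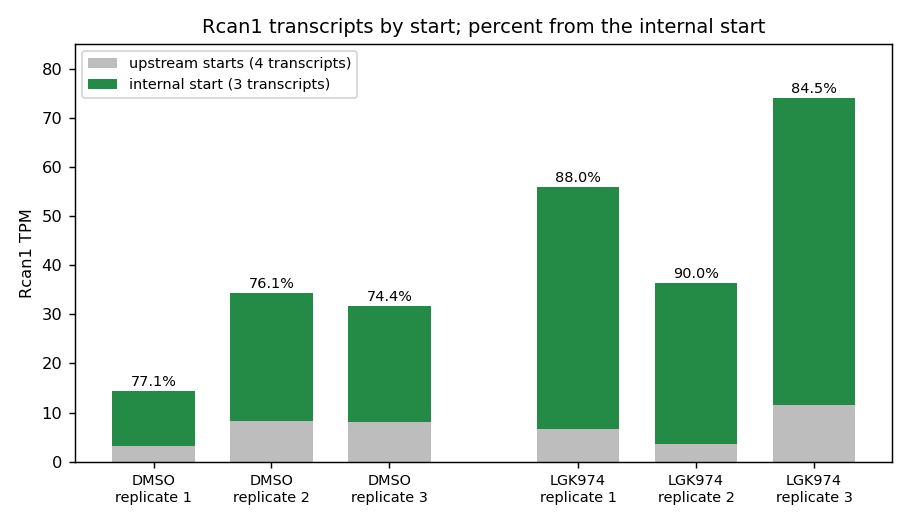
TPM of Rcan1 in each library, stacked by transcript start: grey for the 4 transcripts from the upstream starts and green for the 3 from the internal start, with the percent from the internal start printed above each bar. The green share is 74.4 to 77.1% in the DMSO libraries and 84.5 to 89.97% in the LGK974 libraries.

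A single gene of the working muscle, Myh6 (chr14:54941921-54966927, minus strand), served as a reference within each library, since a ratio of genes in the same library does not depend on how libraries are scaled. Myh6 itself was at 7280, 12110 and 10120 CPM with LGK974 and at 11620, 13200 and 15940 CPM with DMSO. Its groups overlapped through DMSO replicate 1 alone, and without that library Myh6 was lower with LGK974 without overlap. The log2 fold change was −0.47 (standard error 0.369) with it and −0.56 without it. For each 100 Myh6 counts there were 5.47, 1.87 and 4.80 counts of Sprr1a in the LGK974 libraries and 0.437, 0.568 and 0.522 in the DMSO libraries, a 7.24-fold difference. The number of Nppa counts for each 100 of Myh6 was 20.0, 10.4 and 11.1 with LGK974 and 3.95, 5.48 and 4.34 with DMSO (2.91-fold). Acta1 differed by 2.77-fold, Gdf15 by 3.09-fold, Rcan1 by 2.44-fold and Ankrd1 by 1.96-fold on this scale, and none of their groups overlapped.

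Relative to Myh6 the groups of Nppb also no longer overlapped, though narrowly. There were 0.844, 0.466 and 0.613 Nppb counts for each 100 of Myh6 with LGK974 and 0.242, 0.429 and 0.241 with DMSO. The ratio of beta- to alpha-myosin, a classical measure of the fetal shift in rodents, was 36.7, 28.4 and 5.14 Myh7 counts for each 100 of Myh6 with LGK974 and 12.7, 11.9 and 14.9 with DMSO. LGK974 replicates 1 and 2 lay above every DMSO library in that ratio and replicate 3 below them all. So 7 of the 8 genes were higher without overlap relative to Myh6. Myh6 itself was lower on average with LGK974, and 31.2% of all 20093 other genes were also higher without overlap relative to it, with a median log2 difference of 0.39 over all genes. The 8 genes were chosen on this ratio as well, so nothing is read from the share.

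**Figure D3:**
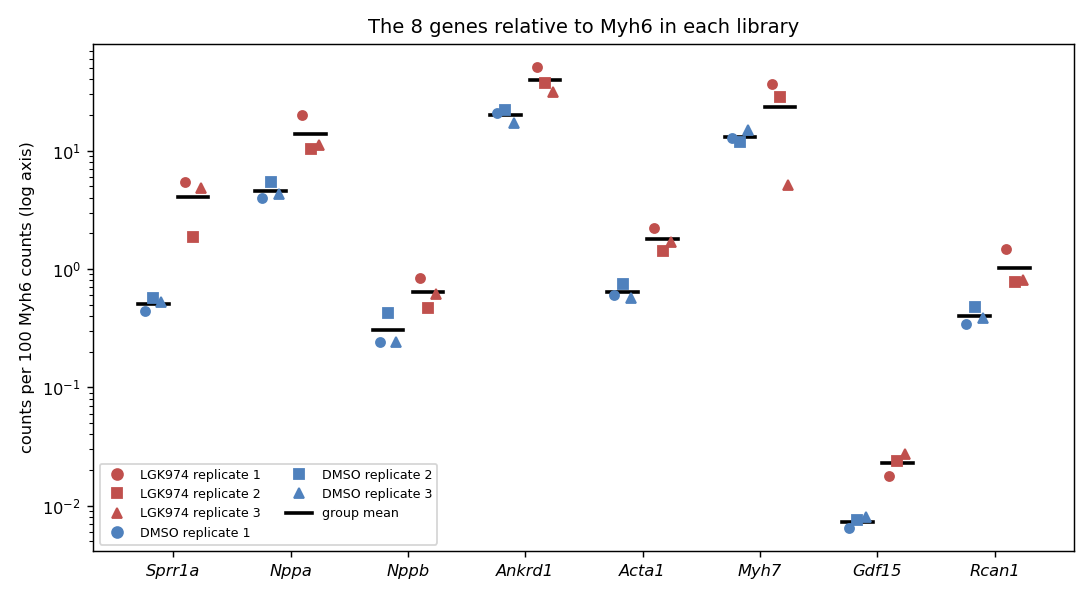
Counts of each gene for each 100 Myh6 counts in the same library, on a log axis, with the symbols of the plot of CPM by library. Every gene except Myh7 has its LGK974 points above its DMSO points, and the Myh7 point of LGK974 replicate 3 lies at 5.14, below the DMSO points at 11.9 to 14.9.

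The choice of reference gene mattered. With Tnnt2, Myl2 or the sum of 16 adult cardiomyocyte genes in place of Myh6, 6, 7 and 7 of the 8 genes were higher without overlap, as were 23%, 26.6% and 17.2% of all other genes. With Actc1 in its place, this held for 1 gene, Sprr1a, whose log2 ratio was 1.47 higher with LGK974, and for 0.0946% of all other genes. Against Actc1, Nppa (0.16), Acta1 (0.09) and Gdf15 (0.25) had small positive log2 differences, and Nppb (−0.30), Ankrd1 (−0.41), Rcan1 (−0.10) and Myh7 (−0.97) had negative ones. The ratio of Nppb to Actc1 was lower in every LGK974 library than in every DMSO library, as were the ratios of 54.4% of all other genes. Actc1 was the exception among the adult cardiomyocyte genes, 15 of which had a negative log2 fold change. Their median was −0.39, against −0.13 over all tested genes. It was −0.16 without LGK974 replicate 3 and −0.16 without DMSO replicate 3, where the median over all genes was −0.06 and 0.02. Without DMSO replicate 1, 8 of the 16 were lower without overlap (12.6% of all genes were), against 0 with it.

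**Figure D4:**
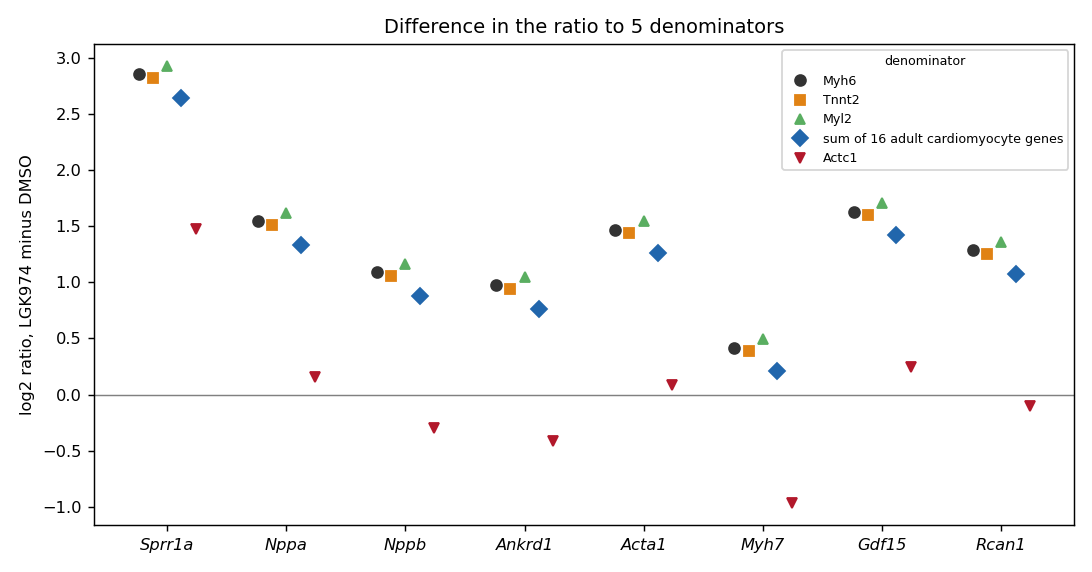
Difference of the mean log2 ratio between LGK974 and DMSO libraries for each gene, with 5 references: Myh6, Tnnt2, Myl2, the sum of 16 adult cardiomyocyte genes, and Actc1. The first 4 references give positive values for all 8 genes, and the Actc1 values are lower throughout, from −0.97 for Myh7 to 1.47 for Sprr1a.

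In the quasi-likelihood fit of edgeR, after adjustment by Benjamini and Hochberg over all 20094 genes, 0% of the genes had an adjusted p under 0.05, the 8 genes included, and the lowest adjusted p of any gene was 0.368. At an unadjusted p under 0.05 there were 1257 genes higher with LGK974 (6.26%) and 1442 lower (7.18%), among them 5 of the 8 genes, all higher. DESeq2, the tool named in the study's methods, gave an adjusted p under 0.05 to 0.852% of 23595 genes as higher and to 0.373% as lower, and 3 of the 8 genes (Sprr1a, Acta1 and Nppa) were among the higher ones. limma-voom gave 0 genes. The 8 genes were chosen on this contrast, so nothing is read from how many of them were called. For a single gene, 3 mice in each group allow no exact permutation p under 0.1. The fold change of all 8 genes was above 1 in the main comparison, with a median log2 fold change of 0.88.

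DMSO replicate 1 stood apart from the other libraries. It lay at 173 on the first principal component of log2 CPM, which held 63.7% of the variance, while the other 5 libraries lay between −91.7 and 45.2, and edgeR's common dispersion fell from 0.238 to 0.0825 without it. It was the lowest library for 7 of the 8 genes, Myh7 being the exception. On the CPM scale of all 6 libraries, leaving a library out cannot create an overlap, so neither count could fall. Without DMSO replicate 1, 6 genes were higher with LGK974 without overlap, beside 15.1% of all genes. Relative to Myh6 there were 7, beside 45.6% of all genes. When the CPM were rescaled over the remaining 5 libraries, Nppb became the 7th, with a lowest LGK974 value of 58.8 and a highest DMSO value of 57.4 CPM. The log2 fold changes in the fit of those 5 libraries were 2.24 for Sprr1a, 1.04 for Gdf15, 0.88 for Nppa, 0.86 for Acta1, 0.61 for Rcan1, 0.44 for Ankrd1, 0.36 for Nppb and 0.18 for Myh7. Total estimated counts were 46208470 to 80398211 with LGK974 and 41579787 to 48517100 with DMSO, and mitochondrial genes took 28.1 to 53.6% and 39.2 to 42.6% of them.

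Values in TPM, which are corrected for transcript length and so can be compared between genes, put the 8 genes far apart in level. Myh6 had a mean of 2473 TPM over the 6 libraries. Ankrd1 came next with 1854 (930 to 3009) and ranked 32nd of 36047 genes, followed by Nppa with 1435 (450 to 2680), Myh7 with 453 (215 to 686), Sprr1a with 413 (54.6 to 1269), Acta1 with 108 (40.9 to 219.5), Nppb with 87.6 (31.5 to 169), Rcan1 with 41.1 (14.3 to 74.0) and Gdf15 with 1.34 (0.383 to 3.48). The ranges of neighbours in this order overlap, except that Gdf15 lay below Rcan1 in every library. Within single libraries the order was steadier, since Ankrd1 exceeded Nppa, Nppa exceeded Myh7, Sprr1a exceeded Acta1 and Nppb exceeded Rcan1 in all 6. Myh7 was above Sprr1a in 5 libraries, Acta1 above Nppb in 5 and Myh6 above Ankrd1 in 4. Short transcripts weigh heavily in the TPM of the myosins. Myh7-206, of 595 bases, held 23.5 to 48.6% of Myh7's TPM but 2.33 to 6.22% of its estimated counts. Myh6-207, of 542 bases, held 16.9 to 34.0% of Myh6's TPM. The places of Myh7 and Myh6 in this order therefore rest in part on these short transcripts.

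Across the 6 libraries, 7 of the genes varied together. The 21 pairs of genes without Myh7 had Pearson correlations of log2 CPM of 0.641 to 0.991, the highest for Nppa with Rcan1 and the lowest for Nppb with Gdf15. The 7 pairs with Myh7 had correlations of −0.205 to 0.411. These are descriptions over 6 points that share the treatment difference and the low values of DMSO replicate 1. They are not independent of the choice of genes. A correlation takes no account of the size of a difference, and the genes named next had the highest values of many. Sarnp and Slc15a3 had log2 fold changes of 0.16 and 1.35, against 2.41 for Sprr1a. Of 8126 other tested genes with a mean of at least 10 CPM, those that followed the members most closely were Sarnp and Slc15a3 for Sprr1a (r of 0.999 and 0.998), Ccdc88a and the macrophage gene Cd68 for Nppa (0.997 and 0.997), Degs1 and Sri for Rcan1 (0.998 and 0.996), Ccdc115 and Gpc6 for Acta1 (0.995 and 0.993), Copz1 and Eif4e2 for Nppb (0.997 and 0.996), Ly6a and Grpel2 for Ankrd1 (0.992 and 0.979), Arrdc3 and Ppid for Gdf15 (0.991 and 0.985), and Adprhl1 and Nkapd1 for Myh7 (0.980 and 0.977).

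Markers of other cells moved with the same contrast. All 12 leukocyte markers were higher with LGK974 without overlap, with a median log2 fold change of 0.96, an unadjusted p under 0.05 for 12 and an adjusted p under 0.05 by DESeq2 for 8. Among all genes, 10.7% were higher without overlap, 6.26% were higher at that unadjusted p and 0.852% were higher by DESeq2. Lyz2, the lysozyme of macrophages and neutrophils, was at 180.3 ± 27.3 CPM with LGK974 and 73.3 ± 18.4 CPM with DMSO (SD, n = 3). Leaving out DMSO replicate 1 cannot create an overlap on the same CPM, so the count of 12 could not fall (15.1% of all genes were higher without overlap then). In the fit without that library, the median log2 fold change of the leukocyte markers was 0.87. Their summed level was 307 to 825 TPM with LGK974 and 118 to 250.1 TPM with DMSO. Of 10 fibroblast markers, 6 were higher without overlap, 5 of them also by DESeq2, with a median log2 fold change of 0.83 and summed levels of 818 to 2850.0 and 406 to 808 TPM. Periostin, Postn, a matrix protein of activated fibroblasts, had the largest log2 fold change of these at 1.56 (standard error 0.301), and Pdpn the smallest p. None of these markers was at 0 in every library. Endothelial markers (9 tested, median 0.03) and smooth muscle markers (8 tested, median 0.10) had 0 genes higher without overlap, and the endothelial Vwf was lower. Without DMSO replicate 1 both medians were below 0, at −0.07 and −0.06, and without DMSO replicate 3 the endothelial median was 0.27. The part of these cells in the differences of the 8 genes was not tested.

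Markers of other striated muscle were low. Fast skeletal muscle markers summed to 7.55 to 28.0 TPM with LGK974 and 7.38 to 10.2 TPM with DMSO, against 102 to 219.5 TPM and 40.9 to 78.8 TPM for Acta1. Of their 8 tested genes, the troponin gene Tnnt3 was higher without overlap (log2 fold change 1.57, standard error 0.351) and Myh1 lower. The median log2 fold change was −0.84, but it was 0.79 over the members with at least 50 counts in 3 libraries and −0.30 without LGK974 replicate 1. Slow skeletal markers, which like slow muscle itself overlap with the fetal heart, had a median of −0.47 over 6 tested genes with 0 whose groups did not overlap, and squamous markers a median of −0.56 over 4.

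**Figure D5:**
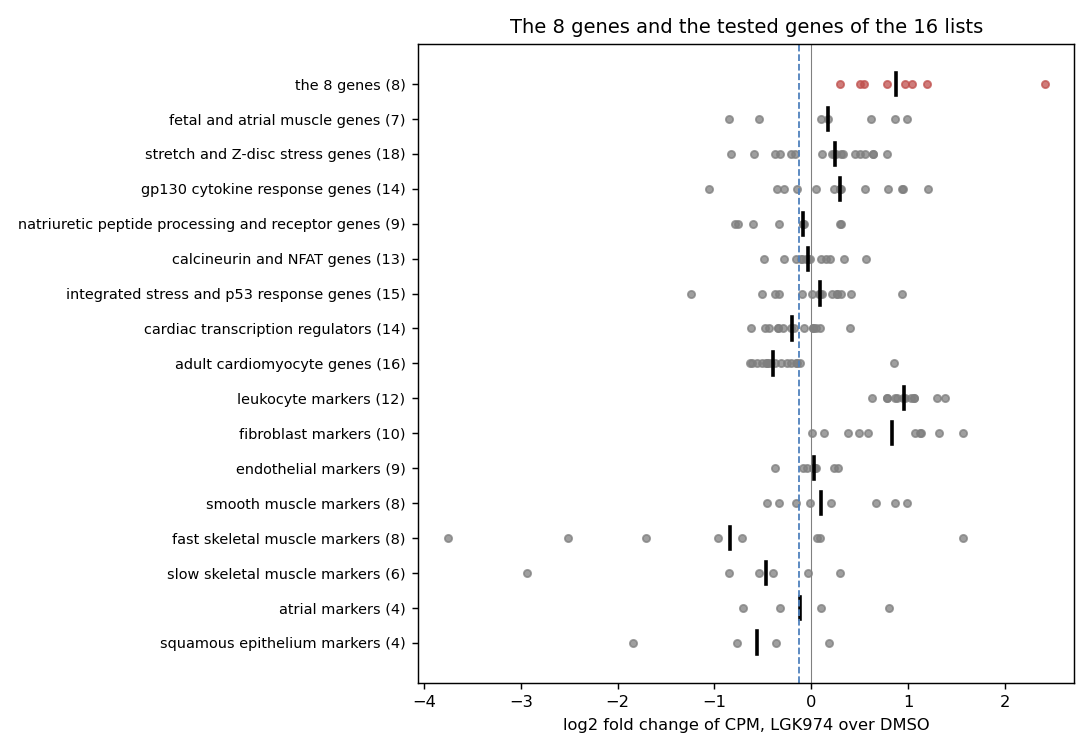
Log2 fold change of CPM between LGK974 and DMSO for the 8 genes (red) and for the tested genes of 16 lists (grey, number tested in brackets), with a black bar at each median and a dashed line at −0.13, the median of all tested genes. The 8 genes have a median of 0.88, next to the leukocyte (0.96) and fibroblast (0.83) markers, while adult cardiomyocyte genes have a median of −0.39.

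Other genes of the same pathways had medians nearer to 0 than the 8 genes, which were chosen for their difference. Of 10 further genes of fetal and atrial muscle, 7 passed the count filter, 0 had an unadjusted p under 0.05 and 0 had groups that did not overlap, with a median log2 fold change of 0.17. The smooth muscle actin Acta2, part of the early heart's actin, was at 120 ± 93.4 CPM with LGK974 and 60.5 ± 10.8 CPM with DMSO (SD, n = 3), and the slow myosin Myh7b at 33.5 ± 17.6 and 60.2 ± 22.2 CPM. Of this list, 7 genes also belong to the smooth muscle, atrial or slow skeletal lists. Of 18 stretch and Z-disc genes, 4 were higher without overlap (median 0.25), as were 10.7% of all genes. At an unadjusted p under 0.05 there were 3 higher and 1 lower, against 6.26% and 7.18% of all genes. Ankrd23, a relative of Ankrd1 that also binds titin, was at 143 ± 11.03 CPM with LGK974 and 97.2 ± 15.9 with DMSO. On the log2 scale Synpo2l differed by 0.64 (standard error 0.221) and the actin-binding Xirp2 by 0.78 (standard error 0.322). Fbxo32, a ubiquitin ligase of muscle wasting, was at 42.3 ± 19.0 and 74.9 ± 25.5 CPM.

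In heart, Sprr1a is known as a gene that responds to gp130 cytokine signalling. The list for this pathway, which mixes its ligands and receptors with genes counted as its responses, had the most calls of the 7 pathway lists. Of 14 tested, 7 were higher and 1 lower without overlap, 5 were higher and 1 lower at an unadjusted p under 0.05, and DESeq2 called 3 as higher (Hmox1, Timp1 and Fstl1). Among all genes, 10.7% were higher and 7.27% lower without overlap, and 6.26% higher and 7.18% lower at that unadjusted p. DESeq2 called 0.852% of its genes as higher. The median log2 fold change was 0.30. Hmox1, heme oxygenase, was at 103.7 ± 17.2 CPM with LGK974 and 53.6 ± 5.82 CPM with DMSO (SD, n = 3). Socs3, the feedback inhibitor of the receptor, was at 13.1 ± 2.87 and 6.84 ± 1.27 CPM, and the oncostatin M receptor Osmr had a log2 fold change of 0.55 (standard error 0.172). Timp1, an inhibitor of matrix proteases, was at 82.2 ± 32.8 CPM with LGK974 and 35.7 ± 7.06 CPM with DMSO, and the cytokine Ctf1 was the lower gene (log2 fold change −1.05, standard error 0.433). Without DMSO replicate 1, 9 of the 14 were higher and 2 lower without overlap, against 15.1% and 12.6% of all genes, and the median was 0.61. Several genes of this list are also used by leukocytes and fibroblasts, whose markers were higher in the same libraries. Il6st and Stat3 were higher without overlap (log2 fold changes 0.30 and 0.30). The groups overlapped for the cytokines Lif (0.23), Osm (−0.14), Il6 (0.30), Il11 (−0.28) and Clcf1 (0.05) and the receptor Lifr (−0.35). The part of this pathway in the difference of Sprr1a was not tested.

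For the peptide hormones, the 9 genes that process or bind them had a median log2 fold change of −0.09, or 0.11 with counts scaled to total counts only, a scaling that raised the median of all genes by 0.21. Without DMSO replicate 1, 4 of the 9 were lower without overlap and 1 was higher, against 12.6% and 15.1% of all genes, and without DMSO replicate 3 the median was 0.024. Mme, neprilysin, which degrades natriuretic peptides, was lower without overlap at 9.90 ± 3.25 CPM with LGK974 and 16.8 ± 2.22 CPM with DMSO (SD, n = 3), and Furin was higher without overlap. Npr3, the clearance receptor, was at 16.2 ± 8.06 and 27.9 ± 9.78 CPM, and Corin, which cleaves the Nppa precursor, at 94.1 ± 31.3 and 143.0 ± 53.4 CPM. Of the 9, 1 was lower at an unadjusted p under 0.05, as were 7.18% of all genes. Calcineurin and NFAT genes (13 tested) had a median of −0.03. Total counts turned it to 0.15, counts scaled from TPM to 0.051 and leaving out DMSO replicate 3 to 0.15. Rcan3, a relative of Rcan1, was at 7.12 ± 0.957 CPM with LGK974 and 4.81 ± 0.483 CPM with DMSO. In this list 1 gene was higher at an unadjusted p under 0.05, against 6.26% of all genes. The calcineurin-binding Z-disc gene Myoz2 was at 227 ± 64.9 and 318 ± 40.7 CPM. Integrated stress and p53 response genes (15 tested), to which Gdf15 is linked, had a median of 0.09, and of −0.008 without DMSO replicate 1. Among them Atf3 was at 7.95 ± 0.944 and 4.14 ± 1.30 CPM without overlap, and Slc7a11 was at 11.6 ± 1.25 CPM with LGK974 and at 53.6, 19.2 and 9.70 CPM in DMSO replicates 1, 2 and 3. In this list 3 genes were higher and 1 lower without overlap, against 10.7% and 7.27% of all genes. Cardiac transcription regulators (14 tested) had a median of −0.20, and Hand2 was lower without overlap at 29.6 ± 3.64 CPM with LGK974 and 45.7 ± 4.62 CPM with DMSO. Without DMSO replicate 1, 6 of these 14 were lower without overlap and 0 higher, against 12.6% and 15.1% of all genes. Without DMSO replicate 3 the median of these regulators was 0.11.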

How the data were processed

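RNA from the infarct area of 6 mice (3 LGK974, 3 DMSO) was depleted of ribosomal RNA, made into libraries with an RNA Access kit and sequenced. The authors quantified transcripts with Kallisto on Ensembl transcripts of GRCm38 and deposited, for each library, estimated counts and TPM for 118489 transcripts; the version and any trimming are not given in the sources used here. Estimated counts need not be whole, since Kallisto divides reads between transcripts that share sequence. The deposited TPM values take account of transcript length and sum to the same total in every library. They are thus shares of a library, and were not scaled with TMM where TPM is given.

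Through GENCODE's GRCm38 annotation, 98.6% of transcripts were joined to 36047 genes, and their estimated counts were added up for each gene, then rounded. CPM used TMM-scaled library sizes. A gene was tested if 3 or more libraries held 10 or more counts of it, using edgeR 4.0.16 (R 4.3.3), quasi-likelihood, treatment as sole term, Benjamini-Hochberg adjustment and a threshold of 0.05. DESeq2 1.42.0 and limma-voom (limma 3.58.1) were alternatives, as were other scalings, filters, reference genes, the replicate block and leaving out each library. The edgeR fit was tested on simulated data. Groups follow the sample labels. Depth was 41579787 to 80398211 estimated counts a library. The number of mice limits the precision. Values after ± are SD, and standard errors are edgeR log2 fold changes divided by the root of their F statistic. Tables were made in Python 3.11.15 with pandas 2.3.3 and NumPy 2.4.6, and figures with matplotlib 3.10.9.

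The 8 genes, the 7 pathway lists and the 9 cell type lists were chosen with earlier results of these data known. Besides the 8 genes and Myh6, genes were named by rule: of each list up to 3 with the smallest edgeR p and, for cell type lists, the most abundant; and for each of the 8 genes the 2 tested genes of at least 10 CPM with the most similar log2 CPM. Other genes (Bmp10, Furin, Myl7, Sln, Sprr1b and Vwf among them) were named after their values were seen. A gene's shared sequence was measured as the share of its 31-base words found in another gene's transcripts. Promoter windows came from RefSeq's GRCm38.p6 table, which matched all 8 genes. Flow cytometry and heart function were not analysed here.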

Additional observations from a re-analysis of the deposited data

How the results depend on the processing

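Of 527 values recomputed under alternatives, 486 stayed within the spread between replicates or within 1.5 times a count and 41 did not; 28 took the opposite sign, 16 of them within that spread. The count of 0 genes at an adjusted p under 0.05 (2699 unadjusted) became 289 (4477 unadjusted) with DESeq2, 321 with DESeq2 without DMSO replicate 1 (chosen after seeing the data) and 1206 (4790 unadjusted) without the filter on low counts. Leaving out each library in turn gave 0 to 2 adjusted and 821 to 4628 unadjusted, the lowest without LGK974 replicate 3 and the highest without DMSO replicate 3. The 6 genes without overlap became 6 or 7, and the 7 relative to Myh6 became 6 to 8 except with Actc1 as reference, which left 1 and turned the log2 ratio of Nppb to −0.30, of Ankrd1 to −0.41, of Rcan1 to −0.10 and of Myh7 to −0.97. Without LGK974 replicate 1 the log2 ratio of Myh7 to Myh6 was −0.12. The list medians moved as follows, where the cause was not tested. With counts scaled to total counts only, they were 0.54 for gp130 genes, 0.11 for natriuretic peptide processing, 0.15 for calcineurin genes and 0.28 for integrated stress genes. Without the count filter, natriuretic processing gave 0.042, calcineurin genes 0.10 and squamous markers −1.49. With counts scaled from TPM, fetal and atrial genes gave 0.69, natriuretic processing −0.34 and atrial markers 0.24 (−0.12 otherwise). With at least 50 counts in 3 libraries, fetal and atrial genes gave 0.56 and fast skeletal genes 0.79. Leaving out single libraries gave 0.083 to 0.477 for fetal and atrial genes, 0.25 to 0.61 for gp130, −0.243 to 0.024 for natriuretic processing, −0.029 to 0.153 for calcineurin, −0.008 to 0.35 for integrated stress, −0.30 to 0.11 for cardiac regulators, −0.564 to −0.159 for adult cardiomyocyte genes and −1.43 to −0.30 for fast skeletal genes. With the replicate block, 0 genes passed an adjusted and 3312 an unadjusted p under 0.05, and it changed no call of the 8 genes. The mice are different animals, so the main fit did not use the numbers as pairs. Deviations of mice with the same number correlated at 0.475, −0.048 and 0.391, and those of mice with different numbers at −0.518 to 0.1. Whether mice with the same number share a batch was not tested. Gdf15 had the fewest counts, 30 to 178 a library, and a pooled SD of log2 CPM within groups of 0.54. The counts of Myh7 are limited by the sequence it shares with Myh6.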

Other observations

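Transcript shares of Acta1 and Myh7 also varied between libraries. The shorter Acta1-202 held 3.84, 5.94 and 0.495% of Acta1's TPM in LGK974 replicates 1, 2 and 3 and 15.0, 14.3 and 7.60% in DMSO replicates 1, 2 and 3, and on the scale of estimated counts 1.31, 2.06 and 0.167% against 5.61, 5.25 and 2.65%. Every LGK974 library was below every DMSO library in both. The transcript Myh7-206, annotated as a retained intron, held 23.5 to 36.5% of Myh7's TPM with LGK974 and 24.7 to 48.6% with DMSO, and these ranges overlap. Antisense genes overlap exons of Myh7 by 142 to 523 bases and were not quantified in the deposited files, and the strand setting of the quantification is not given in the sources used here.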
